A study of Mus musculus with 18 samples.

Results

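A set of 10 genes that mark marginal zone B cells was followed through bulk RNA-Seq of mouse B cells: Cr2, Cd1d1, Cd9, Cd36, S1pr3, Dtx1, Notch2, Myof, Plac8, and Nebl. The set was chosen with earlier results of these data known. Its genes were looked up by symbol in the expected-count table, and all 10 were found among its 55491 genes. Female BALB/cJ mice, 4 to 6 weeks old at the start, were sensitized i.p. on days 0 and 14 with 20 μg OVA (ovalbumin, the egg allergen) in 1 mg alum. On days 28 and 42 they received 2.5 mg OVA NPs (nanoparticles that carry the allergen), 100 μg soluble OVA, or 100 μL PBS i.v., and B cells of spleen and Peyer's patches were collected on day 44, at 10 to 12 weeks of age. Every group, the PBS controls included, was therefore OVA-alum sensitized, and no unsensitized mice were analysed here. The 18 libraries formed 6 groups of 3 labelled biological replicates, 1 group for each tissue and treatment.

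Marginal zone B cells lie at the border of the splenic white pulp and the blood-filled sinus, where they take up blood-borne antigen and respond quickly. Their development depends on the receptor NOTCH2, which is engaged by the ligand DLL1 on stromal cells and which, once cleaved, acts in the nucleus with the DNA-binding protein RBPJ. The cells carry high levels of the complement receptor CD21 and of the lipid-presenting molecule CD1d, and sphingosine 1-phosphate receptors help to hold them in place. Peyer's patches are lymphoid organs in the wall of the small intestine that hold mainly follicular and germinal center B cells and have no blood-filled marginal sinus of this kind. None of the 10 genes is confined to marginal zone B cells: follicular B cells and follicular dendritic cells also use Cr2, and macrophages and endothelial cells also use Cd36.

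Library totals ran from 14177253 to 30052297 counts, and levels are given as CPM, a gene's count scaled to an equal total in every library. A level of 3 counts, taken as the limit of detection, lay between 0.0998 and 0.212 CPM, and this limit covers counting error only. Mitochondrial genes took 2.82% to 3.41% of the counts in spleen and 4.97% to 9.80% in Peyer's patches. Among the patches the share was 5.41% to 7.67% after PBS, 4.97% to 6.02% after soluble OVA, and 9.08% to 9.80% after OVA NPs. The OVA NP patches thus did not overlap the other patches. The 7 genes of B cell identity, such as Cd79a, summed to between 7845 and 9289.9 CPM in spleen and between 5429.6 and 6844 CPM in Peyer's patches. In bulk libraries of this kind, fewer marginal zone B cells and less RNA per cell cannot be told apart.

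Compared per kilobase of exon in the spleens of PBS-treated mice, the genes spanned from 185 ± 9.19 (SD, n = 3) CPM per kb for Cr2 to 1.08 ± 0.116 CPM per kb for Nebl. Plac8 and Dtx1 came next, at 88.4 ± 1.21 and 86.0 ± 5.69 CPM per kb, and their ranges over libraries overlapped. Notch2 followed at 46.0 ± 2.55 CPM per kb. Cd1d1 and S1pr3, at 16.7 ± 1.73 and 14.4 ± 1.79 CPM per kb, were not separated from each other. Cd36, Cd9, and Myof stood at 10.1 ± 0.820, 7.05 ± 0.596, and 1.38 ± 0.220 CPM per kb. The length used is that of all annotated exons of a gene together, 15.2 kb for Nebl and 12.6 kb for Myof. Where the expressed transcript is shorter, the level per kb comes out too low, so the order of the genes depends on this length. In the Peyer's patches of mice given soluble OVA, Plac8 had the highest mean, 56.6 ± 23.0 CPM per kb, but its libraries overlapped those of Cr2 at 52.0 ± 1.68 CPM per kb.

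Because NOTCH2 acts through RBPJ, the promoters of the genes were read for the letters that RBPJ binds. RefSeq windows from 250 bases before to 50 bases after a start site (build GRCm38.p6) were given for 9 of the 10 genes, 13 windows in all, with 4 for Nebl, 2 for Plac8, and none listed for Cd1d1. On either strand, TGGGAA occurred in 6 of the 13 windows and in 25.6% of all 32851 windows of this length. The longer form GTGGGAA, which contains it, occurred in 2 of 13 windows, those of Cr2 and Cd9, and in 6.38% of all windows. The stretches around these matches are shown for the members whose single window held TGGGAA, with the motif in capitals and the gene's own strand read 5′ to 3′.
Cr2, chr1:195176907-195176967, minus strand: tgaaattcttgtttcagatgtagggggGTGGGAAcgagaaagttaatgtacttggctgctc
Cd9, chr6:125494939-125494999, minus strand: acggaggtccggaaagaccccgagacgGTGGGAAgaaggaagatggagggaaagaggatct
Cd36, chr5:17835907-17835966, minus strand: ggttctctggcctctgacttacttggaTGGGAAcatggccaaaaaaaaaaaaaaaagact
S1pr3, chr13:51408604-51408663, plus strand: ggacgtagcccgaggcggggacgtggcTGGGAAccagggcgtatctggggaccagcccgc
The motif began at position -221 from the start site in Cr2, at -212 in Cd9, at -43 in Cd36, and at 14, downstream of it, in S1pr3. The RefSeq start of Cd36 lies inside the gene as GENCODE draws it. Plac8 and Nebl each held TGGGAA in 1 of their windows, and the windows of Dtx1, Notch2, and Myof did not contain it. The E box CAGGTG was found in 3 of 13 windows (Cr2, Cd9, and Nebl) against 20.2% of all windows, and the E box CAGCTG, which reads the same on both strands, in 3 of 13 (Cd9, S1pr3, and Plac8) against 16.3%. These are matches of letters in a short window, and no test was made of them.

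The first comparison asked how the marginal zone genes of the spleen stood after treatment of sensitized mice with OVA NPs or soluble OVA. Against PBS, 9 of the 10 genes had a lower estimate after OVA NPs and 7 were called lower, and after soluble OVA 9 had a lower estimate and 7 were called lower. A gene was called at an adjusted p under 0.05 in edgeR's quasi-likelihood test with a log2 fold change beyond 0.25 in either direction. Of all 14200 genes tested after OVA NPs, 6.35% were called lower and 8.6% higher, and after soluble OVA 6.72% of 14128 were called lower and 10.5% higher. The median log2 fold change of the 10 genes was -0.30 after OVA NPs and -0.43 after soluble OVA, beside 0.00062 and -0.0082 over all genes tested. Both comparisons use the same 3 PBS libraries. The authors' paper had already named Cd9 and Nebl as higher in PBS than in OVA NP spleens of these data. As the 10 genes were chosen with earlier results known, these counts are not an independent test of the set. The plot of CPM by library shows the values that follow. How many of all genes have groups without overlap was not counted, so separations given below describe the libraries only.

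**Figure D1:**
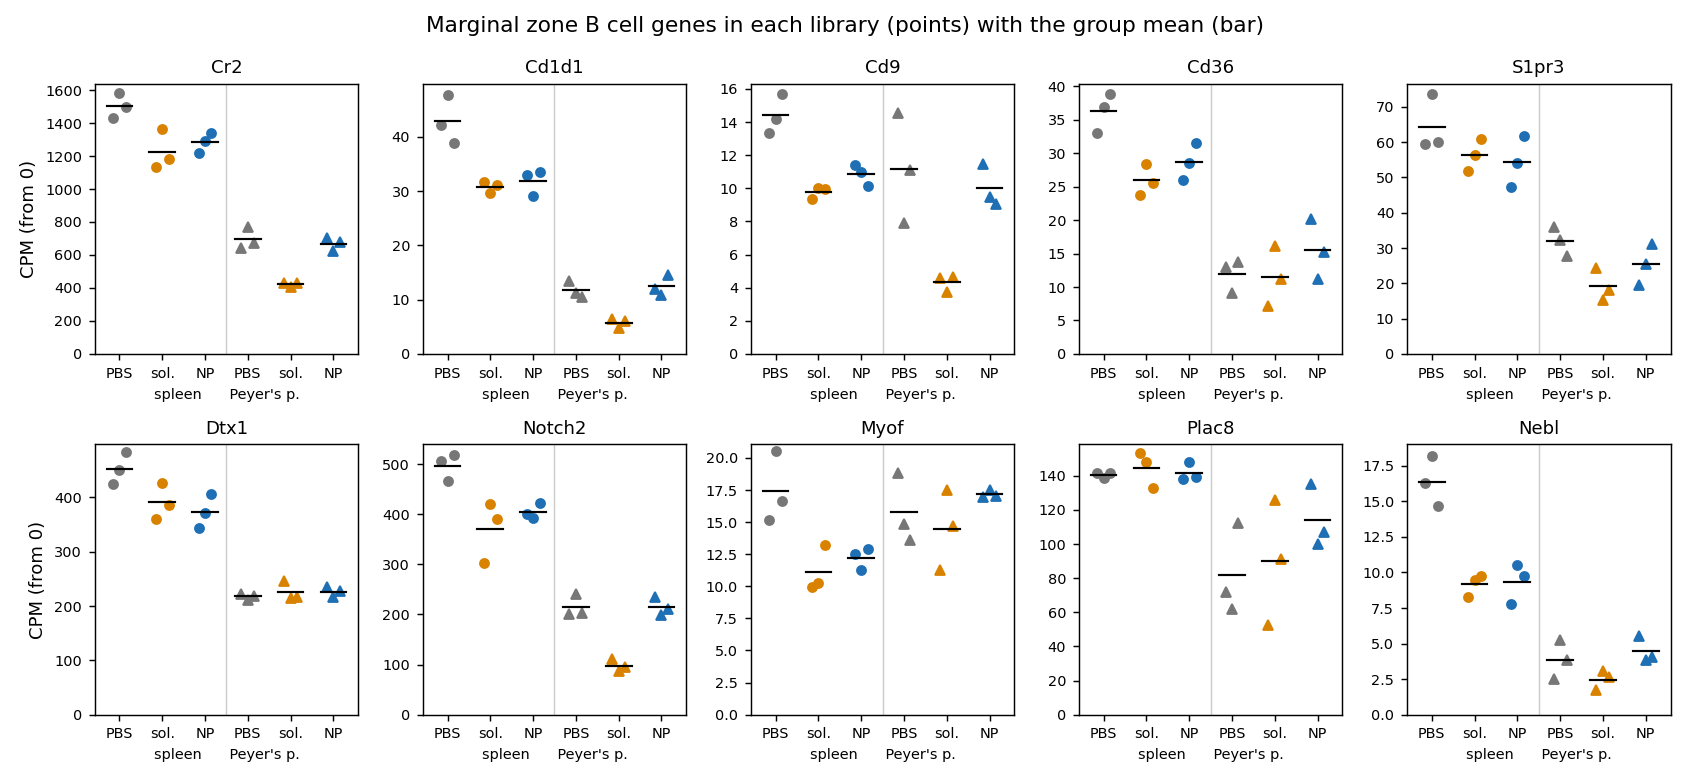
Level of each of the 10 genes in CPM (vertical axes, from 0) in the 18 libraries, for spleen (circles) and Peyer's patches (triangles) after PBS, soluble OVA (sol.), and OVA NPs (NP). Points are libraries and bars are means of 3. In spleen the PBS libraries of Cr2, Cd1d1, Cd9, Cd36, Notch2, Myof, and Nebl lie above both treated groups. In Peyer's patches the soluble OVA libraries of Cr2, Cd1d1, Cd9, and Notch2 lie below both other groups. How many of all genes separate in this way was not counted.

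Among the surface receptors, Cr2 (ENSMUSG00000026616, chr1:195136811-195176716, minus strand), which encodes the complement receptors CD21 and CD35 from 1 gene, was at 1432, 1580.5 and 1499.6 CPM after PBS, 1220.2, 1292 and 1338 CPM after OVA NPs, and 1135, 1361 and 1184 CPM after soluble OVA. The PBS libraries were the 3 highest. The difference was -0.27 (SE 0.08, adjusted p = 0.0262) for soluble OVA and -0.21 (SE 0.064, adjusted p = 0.0298) for OVA NPs, so that the latter passed the p threshold but not the fold threshold. Cd1d1 (ENSMUSG00000028076, chr3:86995834-86999441, minus strand), which presents lipids to NKT cells, was at 42.2, 47.7 and 38.9 CPM after PBS, 33.0, 29.0 and 33.4 CPM after OVA NPs, and 31.6, 29.7 and 31.2 CPM after soluble OVA. No treated library reached the lowest PBS library, and the log2 fold changes were -0.41 (SE 0.088, adjusted p = 0.00464) for OVA NPs and -0.45 (SE 0.086, adjusted p = 0.00201) for soluble OVA. The near-identical neighbour Cd1d2 was listed at 1 to 44 counts per library, 0.775% to 7.87% of the Cd1d1 count, so the share of reads between both genes is uncertain.

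Cd9 (ENSMUSG00000030342, chr6:125460266-125494791, minus strand), a tetraspanin that organizes membrane proteins, was at 13.3, 14.2 and 15.7 CPM after PBS, 11.4, 11.0 and 10.2 CPM after OVA NPs, and 9.32, 10.0 and 9.94 CPM after soluble OVA. Cd36 (ENSMUSG00000002944, chr5:17781690-17888801, minus strand), a scavenger receptor for fatty acids and oxidized lipids, was at 33.1, 37.0 and 38.8 CPM after PBS, 26.0, 28.5 and 31.5 CPM after OVA NPs, and 23.7, 28.5 and 25.6 CPM after soluble OVA. In both genes the PBS libraries were above all 6 treated libraries. Cd9 fell with a log2 fold change of -0.39 (adjusted p = 0.0231) after OVA NPs and -0.54 (adjusted p = 0.00398) after soluble OVA, and Cd36 with -0.32 (adjusted p = 0.0244) and -0.47 (adjusted p = 0.00255). The sphingosine 1-phosphate receptor S1pr3 (ENSMUSG00000067586, chr13:51408639-51422797, plus strand) was at 59.5, 73.7 and 60.2 CPM after PBS, 47.3, 54.0 and 61.7 CPM after OVA NPs, and 51.9, 56.4 and 60.9 CPM after soluble OVA. Its treated libraries overlapped the PBS libraries, and neither difference passed, with 95% intervals of -0.53 to 0.086 for OVA NPs and -0.36 to 0.016 for soluble OVA.

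Of the Notch pair, the receptor Notch2 (ENSMUSG00000027878, chr3:98013527-98150361, plus strand) was at 506, 465 and 518 CPM after PBS, 399, 392 and 423 CPM after OVA NPs, and 303, 421 and 389.9 CPM after soluble OVA. It fell, with a log2 fold change of -0.28 (SE 0.06, adjusted p = 0.00497) after OVA NPs and -0.40 (SE 0.10, adjusted p = 0.0153) after soluble OVA. Dtx1 (ENSMUSG00000029603, chr5:120680202-120711927, minus strand), a ubiquitin ligase of the Deltex family and a known Notch target, was at 424, 451 and 484 CPM after PBS, 345, 371 and 406 CPM after OVA NPs, and 360.3, 426 and 386 CPM after soluble OVA. It was called lower after OVA NPs, at -0.26 (adjusted p = 0.025), just past the fold threshold. After soluble OVA it stood at -0.19 (adjusted p = 0.0864) and was not called, with 1 treated library above the lowest PBS library.

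The remaining 3 genes gave both the strongest fall and the flattest profile. Nebl (ENSMUSG00000053702, chr2:17343909-17731464, minus strand), which encodes the actin-binding nebulette, was at 16.3, 18.2 and 14.6 CPM after PBS, 7.79, 10.5 and 9.74 CPM after OVA NPs, and 8.29, 9.44 and 9.78 CPM after soluble OVA. It had the largest log2 fold change of the 10 genes in both comparisons, -0.79 (SE 0.13, adjusted p = 0.000775) for OVA NPs and -0.82 (SE 0.12, adjusted p = 0.000308) for soluble OVA. Myof (ENSMUSG00000048612, chr19:37899036-38043577, minus strand), a ferlin of membrane repair and fusion, was at 15.1, 20.5 and 16.6 CPM after PBS, 12.5, 11.2 and 12.9 CPM after OVA NPs, and 9.94, 10.3 and 13.2 CPM after soluble OVA, and its log2 fold changes were -0.49 (adjusted p = 0.0119) and -0.63 (adjusted p = 0.00556). Plac8 (ENSMUSG00000029322, chr5:100553725-100572245, minus strand), a small cysteine-rich protein, was at 142, 139 and 142 CPM after PBS, 138, 148 and 139.5 CPM after OVA NPs, and 153, 148 and 133 CPM after soluble OVA. Its 95% intervals of -0.079 to 0.14 for OVA NPs and -0.075 to 0.21 for soluble OVA lay within a log2 fold change of 0.25 on either side of 0.

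Calls after OVA NPs depended on single libraries. With each left out in turn, 2 to 9 genes were called, with 2 without OVA NP replicate 2, 3 without PBS replicate 2, and 3 without PBS replicate 3, and Cd1d1 and Nebl were the members called in each of the 6 fits. Over all genes, 1539 to 2889 were called in those 6 fits, against 2123 with every library kept. In 1 fit of all 18 libraries, 3 genes were called, namely Cd1d1, Dtx1, and Nebl. That fit called 509 of all 17170 genes tested lower. The summed CPM of the 7 B cell identity genes was also lower after OVA NPs, 7845 to 8806 against 9023 to 9289.9 after PBS and 8708 to 8889 after soluble OVA. When libraries were scaled to those genes, 1 marginal zone gene, Nebl, was called after OVA NPs and 6 after soluble OVA, all lower. That scaling raised the median of all genes by 0.13 in the OVA NP comparison. Lower calls over all genes went with it from 902 to 255 after OVA NPs and from 949 to 705 after soluble OVA. For soluble OVA, Cr2 was called in 1 of 6 fits that left out a library (without soluble OVA replicate 2), and Notch2 lost its call without PBS replicate 1 or 3.

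Between the treatments, no marginal zone gene of the spleen was called by edgeR, and none had an unadjusted p under 0.05. DESeq2 called none of them either. Over all 13840 genes tested, 0.101% were called lower and 0.137% higher in OVA NP than in soluble OVA spleens. The log2 differences of the 10 genes ran from -0.066 for Dtx1 to 0.15 for Cd36. The 95% interval was -0.13 to 0.25 for Cr2, -0.11 to 0.35 for Notch2, and -0.30 to 0.36 for Nebl, so differences inside these intervals could not be resolved with 3 libraries a group. Cd9 was the gene whose groups did not overlap.

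**Figure D2:**
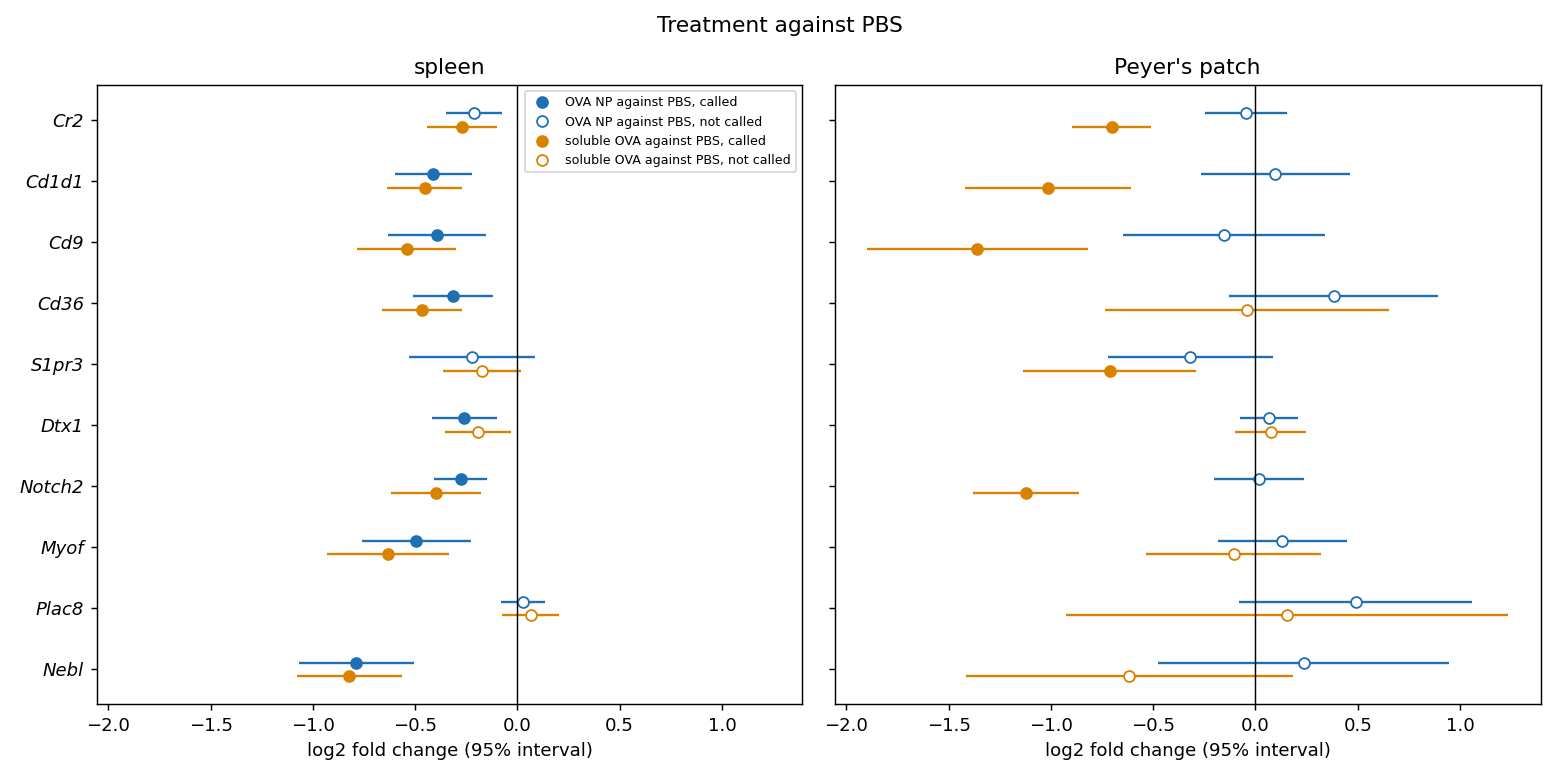
Log2 fold change against PBS (horizontal axis) with its 95% interval for each gene, in spleen (left) and Peyer's patches (right), after OVA NPs (blue) and soluble OVA (orange). Filled points were called. In spleen 7 genes were called lower after each treatment, and in Peyer's patches 5 were called lower after soluble OVA and 0 after OVA NPs.

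The same questions were asked of the Peyer's patches. After soluble OVA, 5 of the 10 genes were called lower against PBS (Cr2, Cd1d1, Cd9, S1pr3, and Notch2), where 13.9% of 15792 genes were called lower and 13.5% higher. After OVA NPs, edgeR called 0 of the 10 genes, and 0% of 15798 genes in either direction. In that comparison 1573 of all genes, and none of the 10, had an unadjusted p under 0.05, and DESeq2 called 149 genes and again none of the 10. Set directly against soluble OVA, OVA NP patches had 4 genes called higher (Cr2, Cd1d1, Cd9, and Notch2), with 13.8% of 15599 genes called higher and 16.3% lower. The mitochondrial share of counts also differed between these groups without overlap, and its part in the calls was not tested. The median log2 fold change of the 10 genes was -0.66 for soluble OVA and 0.083 for OVA NPs against PBS, beside -0.017 and -0.0074 over all genes tested. These 3 comparisons share libraries in pairs.

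Cr2 was at 645, 771 and 671 CPM after PBS, 702, 626 and 679 CPM after OVA NPs, and 429, 406 and 429.8 CPM after soluble OVA. The 3 soluble OVA libraries were the lowest and close together, and the log2 fold change against PBS was -0.70 (SE 0.086, adjusted p = 0.000494). Notch2 was at 201, 239.8 and 203 CPM after PBS, 236, 199.8 and 211 CPM after OVA NPs, and 111, 86.3 and 94.6 CPM after soluble OVA. Its soluble OVA libraries were below all others, at -1.12 (SE 0.11, adjusted p = 0.000216) against PBS and 1.13 (SE 0.12, adjusted p = 0.000416) for OVA NPs against soluble OVA. OVA NP libraries overlapped the PBS libraries in both genes, with 95% intervals of -0.25 to 0.15 for Cr2 and -0.20 to 0.24 for Notch2.

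Cd1d1 was at 13.4, 11.2 and 10.5 CPM after PBS, 12.0, 10.9 and 14.5 CPM after OVA NPs, and 6.36, 4.85 and 5.97 CPM after soluble OVA. Cd9 was at 14.6, 7.90 and 11.1 CPM after PBS, 11.5, 9.46 and 9.04 CPM after OVA NPs, and 4.56, 3.72 and 4.66 CPM after soluble OVA. Again the soluble OVA libraries did not overlap the other 6. Cd1d1 fell with -1.01 (adjusted p = 0.00326) against PBS and Cd9 with -1.36 (adjusted p = 0.00308), the largest fall of the 10 genes. OVA NPs exceeded soluble OVA by 1.10 (adjusted p = 0.00277) in Cd1d1 and 1.19 (adjusted p = 0.00203) in Cd9. S1pr3 was at 35.9, 32.2 and 27.7 CPM after PBS, 19.6, 25.4 and 31.1 CPM after OVA NPs, and 24.4, 15.3 and 18.04 CPM after soluble OVA. Its soluble OVA libraries were below the PBS libraries, -0.71 (SE 0.18, adjusted p = 0.0225), but overlapped the OVA NP libraries, and the call against PBS was lost without soluble OVA replicate 2 or 3 or PBS replicate 1 or 2.

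The other 5 genes were not called in these comparisons of Peyer's patches. Dtx1 was at 223, 212 and 219 CPM after PBS, 235, 217 and 227 CPM after OVA NPs, and 247, 215 and 217 CPM after soluble OVA. All 9 libraries lay within this narrow span, and the 95% interval after soluble OVA, -0.10 to 0.25, left out a fall of the size seen in Notch2. Nebl was at 2.50, 5.22 and 3.85 CPM after PBS, 5.56, 3.81 and 4.06 CPM after OVA NPs, and 1.73, 3.04 and 2.64 CPM after soluble OVA, and OVA NPs differed from soluble OVA by 0.84 (adjusted p = 0.0505), with no overlap between both groups. Under 9 other settings this Nebl difference was called in 4, among them DESeq2 and the fit with no count filter, and Dtx1 after soluble OVA was called higher in 1, the scaling to B cell identity genes. Cd36 was at 13.04, 9.17 and 13.8 CPM after PBS, 20.2, 11.3 and 15.2 CPM after OVA NPs, and 7.19, 16.1 and 11.2 CPM after soluble OVA. Plac8 was at 71.8, 62.0 and 113 CPM after PBS, 135, 100.3 and 107 CPM after OVA NPs, and 52.8, 126 and 91.3 CPM after soluble OVA. The groups overlapped in both genes, with 95% intervals after soluble OVA of -0.73 to 0.65 for Cd36 and -0.92 to 1.24 for Plac8. Myof was at 18.8, 14.9 and 13.6 CPM after PBS, 16.9, 17.5 and 17.0 CPM after OVA NPs, and 11.2, 17.5 and 14.7 CPM after soluble OVA, with overlap of all 3 groups.

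Peyer's patches and spleen were then compared within each treatment, in 3 comparisons that share no library. Of the 10 genes, 8 were called lower in Peyer's patches after PBS, 8 after soluble OVA, and 7 after OVA NPs, where Myof was called higher. Cr2, Cd1d1, Cd36, S1pr3, Dtx1, Notch2, and Nebl were called lower in all 3. Over all genes, 20.1% were called lower and 25.5% higher after PBS, 24.3% and 26.7% after soluble OVA, and 15.1% and 22% after OVA NPs. The median of the 10 genes was -1.01, -1.29, and -0.80 in that order, beside 0.0091, 3.6e-06, and 0.0021 over all genes tested.

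Nebl, Cd1d1, and Cd36 differed most between the tissues after PBS, with log2 fold changes of -2.04 (SE 0.24, adjusted p = 9.7e-05), -1.79 (SE 0.12, adjusted p = 2.37e-06), and -1.51 (SE 0.14, adjusted p = 2.6e-05). Mean Nebl was 16.4 ± 1.77 CPM (SD, n = 3) in spleen and 3.86 ± 1.36 CPM in Peyer's patches. Notch2, Cr2, Dtx1, and S1pr3 were lower too, from -1.13 for Notch2 to -0.93 for S1pr3. Cd9 was not called after PBS and was at 14.4 ± 1.22 CPM in PBS spleens and 11.2 ± 3.33 CPM in PBS patches, a log2 difference of -0.27 (adjusted p = 0.282). After soluble OVA Cd9 was called lower in Peyer's patches, at -1.11 (adjusted p = 0.000529). The tissue by treatment test for Cd9, given with the interactions, did not pass.

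Myof had a log2 fold change of 0.58 (adjusted p = 0.00266) after OVA NPs, 0.45 (adjusted p = 0.0583) after soluble OVA, and -0.063 (adjusted p = 0.764) after PBS. Plac8 was called lower after PBS, -0.70 (adjusted p = 0.043), but this call held in 1 of 6 fits that left out a library (the fit without Peyer's patch PBS replicate 3). In the other 2 treatments it stood at -0.62 (adjusted p = 0.177) after soluble OVA and -0.22 (adjusted p = 0.106) after OVA NPs, without overlap between the tissues.

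Libraries of the 2 tissues also differed in other ways. Spleens were dissociated mechanically and Peyer's patches were digested with collagenase, and this step cannot be told apart from tissue. Genes of B cell identity were lower in Peyer's patches, with 5 of 7 called lower after PBS (median -0.32, furthest Cd79b at -0.72 (SE 0.07, adjusted p = 2.85e-05)), and scaling to them raised the median of all genes by 0.36 to 0.54. Under that scaling Cr2, Cd1d1, S1pr3, Notch2, and Nebl were still called lower in Peyer's patches in all 3 treatments. Cd36 was then called lower after PBS only, and Dtx1 was no longer called after soluble OVA. Of 8 stromal and follicular dendritic genes in the table, 6 were called higher after PBS (furthest Clu at 7.83 (SE 0.44, adjusted p = 9.11e-06)), with summed levels of 245 to 307 CPM in Peyer's patches and 248 to 260.4 CPM in spleen. Pecam1, an adhesion molecule of endothelium and blood cells, was called lower and made up most of the spleen sum, at 244 CPM on average against 166 CPM in Peyer's patches, so the sums do not show the rise of the other 6. All 10 germinal center genes were higher (median 4.69), 4 of 11 tested macrophage and monocyte genes were higher and 3 lower, and C1qa was among the higher ones, at 0 counts in the PBS spleens. All 5 tested T and NK cell genes, 4 of 8 dendritic genes, and 5 of 6 plasma cell genes were higher as well, and all 4 tested erythroid genes were lower. The part of these cells in the levels of Cr2, Cd36, and the other members was not tested.

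**Figure D3:**
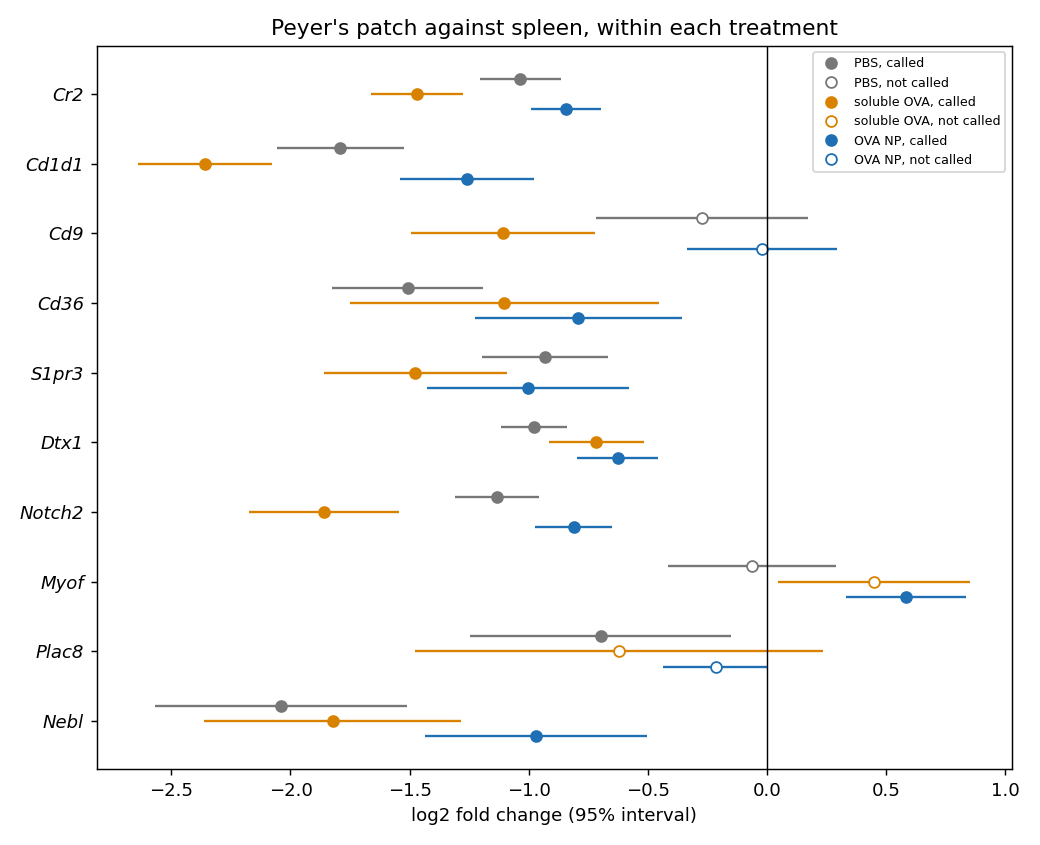
Log2 fold change of Peyer's patches against spleen (horizontal axis) with its 95% interval for each gene, after PBS (grey), soluble OVA (orange), and OVA NPs (blue). Filled points were called. Of the 10 genes, 7 were called lower in all 3 treatments, and Myof was called higher after OVA NPs.

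Whether a treatment acted differently in the 2 tissues was tested as an interaction over 12 libraries, called at an adjusted p under 0.05. For soluble OVA, 1 of the 10 genes was called, Notch2, at -0.72 (SE 0.17, adjusted p = 0.0227), a larger fall in Peyer's patches than in spleen. Of all genes tested, 6.84% were called. Cr2, Cd1d1, and Cd9 had estimates of the same sign that did not pass, -0.43 (adjusted p = 0.0538), -0.56 (adjusted p = 0.0706), and -0.82 (adjusted p = 0.0719). Under 8 other settings Cr2 was called in 5, Cd9 in 3, Cd1d1 in 2, and Dtx1, with a positive value, in 1. Notch2 was called in 7 of the 8, its call being lost with the replicate block, and in 6 of 12 fits that left out a library, where its value ran from -0.83 to -0.60. For OVA NPs, edgeR called none of the 10 genes and 4.42% of all genes. In that test 6 of the 10 genes, and 3106 of all 16619 genes, had an unadjusted p under 0.05. Those 6 had positive values, from 0.31 for Notch2 to 1.05 for Nebl. The smallest adjusted p was that of Dtx1, 0.34 (adjusted p = 0.0718). DESeq2 called 3 of the 6 (Dtx1, Myof, and Nebl), and the fit with no count filter called 5. For soluble OVA the unadjusted p was under 0.05 in 6 of the 10 genes, with values of both signs, and in 3468 of all 16541 genes.

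Notch2 fell in Peyer's patches after soluble OVA, and Dtx1 was not called. The count of Dtx1 per count of Notch2, compared across libraries and not as a level of either gene, was 0.838, 0.969 and 0.935 in PBS spleens, 0.863, 0.946 and 0.959 in OVA NP spleens, and 1.19, 1.01 and 0.990 in soluble OVA spleens. Among Peyer's patches it was 1.11, 0.883 and 1.08 after PBS, 0.998, 1.09 and 1.07 after OVA NPs, and 2.23 to 2.49 after soluble OVA. The 3 soluble OVA patches were above the other 15 libraries. The ratio was computed after the values of both genes had been seen.

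**Figure D4:**
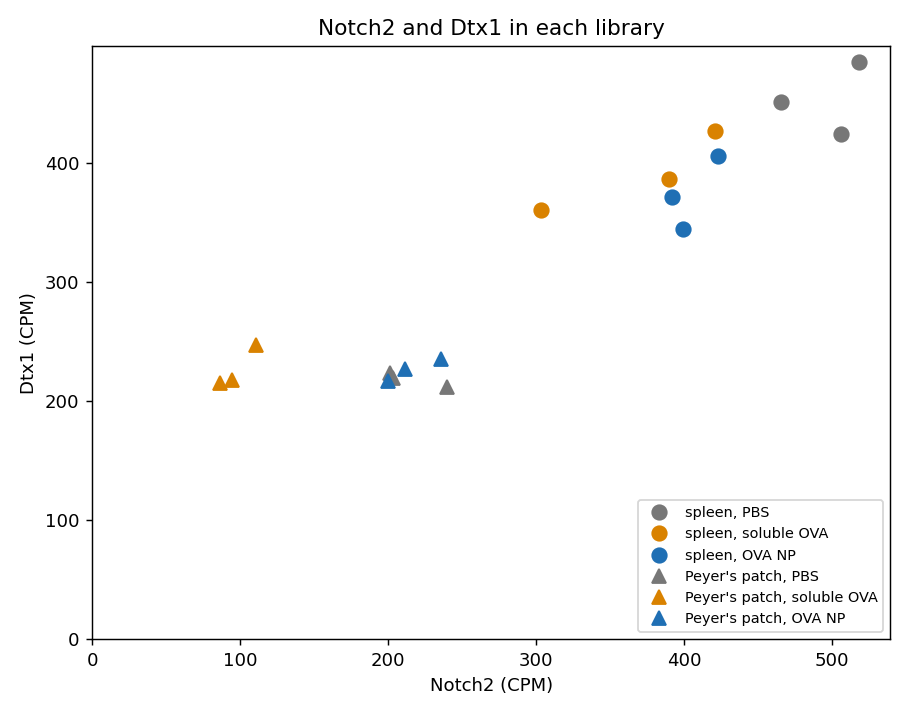
Notch2 (horizontal axis, CPM) against Dtx1 (vertical axis, CPM) in the 18 libraries, with tissue by marker shape and treatment by color. The 3 soluble OVA patches lie to the left, at 86.3 to 111 CPM of Notch2, at the same height of Dtx1 as the other patches.

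The other genes of the Notch pathway, from ligands and processing enzymes to coactivators and targets, were called in both directions. Of 35 on the list, 31 were tested in spleen, and after OVA NPs 1 was called higher and 6 lower (median -0.034), the furthest being the coactivator Maml3 at -0.66 (SE 0.11, adjusted p = 0.000775). After soluble OVA 3 were called lower and 0 higher (median -0.074), with Maml3 at -0.69 (SE 0.12, adjusted p = 0.00109). In Peyer's patches after soluble OVA, 4 of 34 were called higher and 6 lower (median -0.22), with Maml3 at -1.55 (SE 0.22, adjusted p = 0.00101). A list of 19 other genes of marginal zone identity and retention, such as S1pr1 and the integrins, had 2 called higher and 5 lower in spleen after OVA NPs (median -0.16), with Asb2 at -0.88 (SE 0.11, adjusted p = 5.98e-05). After soluble OVA 3 were higher and 6 lower (median -0.10), with Ackr3 at -1.13 (SE 0.18, adjusted p = 0.00057). In Peyer's patches after soluble OVA 1 was higher and 7 lower (median -0.17), with Gpr183 at -1.71 (SE 0.27, adjusted p = 0.00863), a receptor that guides B cells within lymphoid tissue. These counts stand beside 8.6% higher and 6.35% lower of all genes for OVA NP spleens, 10.5% and 6.72% for soluble OVA spleens, and 13.5% and 13.9% for soluble OVA patches, and the Notch pathway counts in soluble OVA patches were near the latter shares.

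Genes of other B cell stages were called to differing extents in the same comparisons, to be set beside the shares of all genes just given. Of 9 follicular genes, 7 were lower in spleen after OVA NPs (median -0.34) with Klf2 at -0.49 (SE 0.069, adjusted p = 0.000232), 5 were lower after soluble OVA (median -0.27), and in Peyer's patches after soluble OVA 7 were lower and 1 higher (median -1.48). Of 10 germinal center genes, 8 were higher in spleen after OVA NPs (median 2.56), 10 after soluble OVA (median 3.00), and 9 in Peyer's patches after soluble OVA (median 0.67). Their summed level was 247 to 384 CPM in PBS spleens, 816 to 1058 CPM in OVA NP spleens, and 941 to 1111 CPM in soluble OVA spleens. Among Peyer's patches it was 2262 to 2682 CPM after PBS, 1805 to 2604 CPM after OVA NPs, and 4319 to 4524 CPM after soluble OVA. Plasma cell genes had 2 of 6 called higher in spleen after OVA NPs, and 2 higher and 1 lower after soluble OVA. Genes of transitional B cells had 0 of 5 called in OVA NP spleens and 1 of 5 lower in soluble OVA spleens. In soluble OVA patches 1 of 4 was higher and 1 lower. Genes of B-1 cells had 2 of 5 higher in OVA NP spleens and 3 of 5 higher in soluble OVA spleens. In soluble OVA patches 2 of 7 were higher and 1 lower. The summed level of the 10 marginal zone genes was 0.450 to 0.489 of that of the follicular genes in PBS spleens, 0.496 to 0.514 in OVA NP spleens, and 0.421 to 0.502 in soluble OVA spleens. The ratio in Peyer's patches was 0.325 to 0.369 after PBS, 0.411 to 0.446 after OVA NPs, and 0.426 to 0.546 after soluble OVA. Most of the marginal zone sum came from Cr2, Notch2, and Dtx1, at 1504, 496, and 453 CPM on average in PBS spleens. The ratio therefore reflects them more than the other members. The part of the follicular and germinal center shifts in the levels of the 10 genes was not tested.

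**Figure D5:**
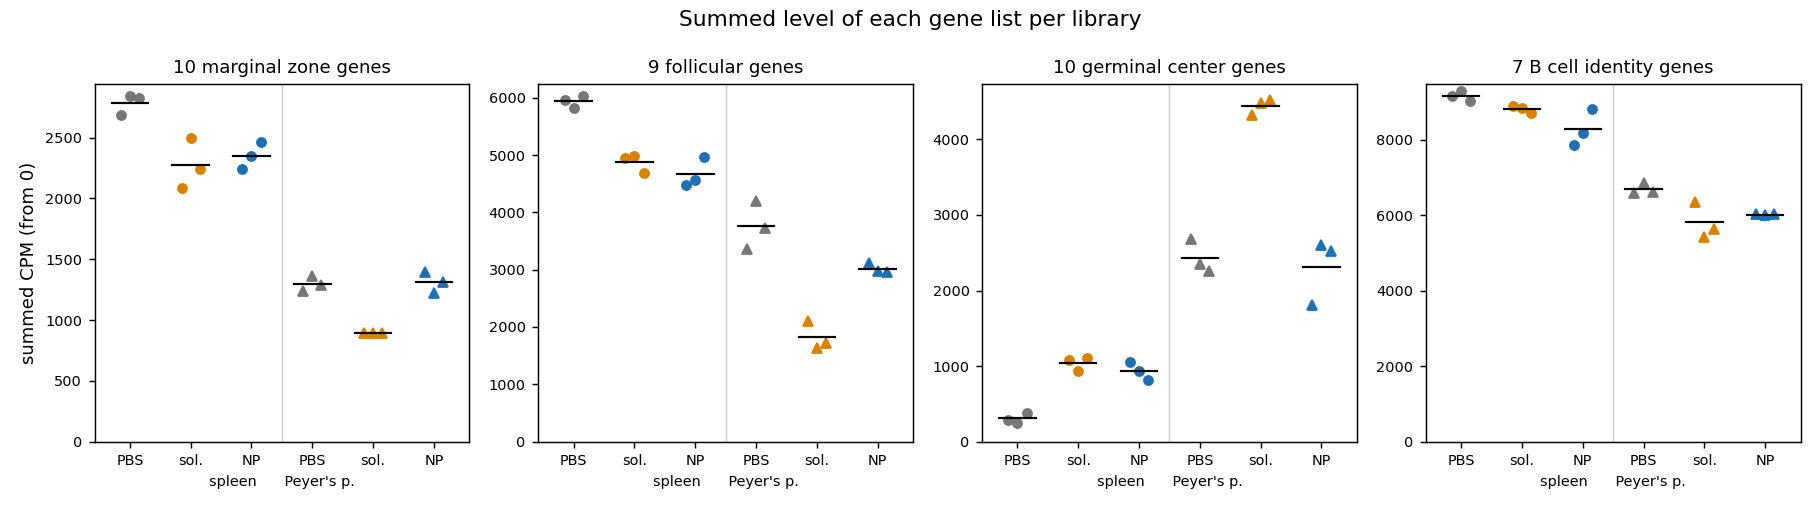
Summed CPM (vertical axes, from 0) of the 10 marginal zone genes, 9 follicular genes, 10 germinal center genes, and 7 B cell identity genes in each library (points) with group means (bars), for spleen (circles) and Peyer's patches (triangles) after PBS, soluble OVA (sol.), and OVA NPs (NP). The soluble OVA patches are lowest in the marginal zone and follicular sums and highest in the germinal center sum. Cr2, Notch2, and Dtx1 make up most of the marginal zone sum.

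Markers of cells outside the B lineage were read in the same libraries. Over all genes, 8.6% were called higher and 6.35% lower in OVA NP spleens, and 10.5% and 6.72% in soluble OVA spleens. The shares were 13.5% and 13.9% in soluble OVA patches, and 13.8% and 16.3% in OVA NP against soluble OVA patches. Of 12 macrophage and monocyte genes, 8 were tested in spleen, and 3 were lower after OVA NPs and 4 after soluble OVA, with Treml4 at -2.31 (SE 0.45, adjusted p = 0.00435) and Treml4 at -3.59 (SE 0.57, adjusted p = 0.00136). Their summed level was 109 to 256 CPM after PBS, 45.1 to 168 CPM after OVA NPs, and 37.2 to 82.6 CPM after soluble OVA, and C1qa was at 0 counts in all 3 PBS and all 3 soluble OVA spleens. In Peyer's patches after soluble OVA 2 of 10 were lower, with Vcam1 at -0.98 (SE 0.23, adjusted p = 0.0114), and 3 of 8 stromal and follicular dendritic genes were lower, with Cxcl13 at -1.35 (SE 0.35, adjusted p = 0.0191). The stromal sums were 245 to 307 CPM after PBS and 149 to 248 CPM after soluble OVA. Dendritic and plasmacytoid genes had 2 of 8 lower in OVA NP spleens, 1 higher and 1 lower in soluble OVA spleens, and 2 of 8 lower in soluble OVA patches. The tested T and NK cell genes and platelet genes gave no call in these 3 comparisons against PBS, and erythroid genes gave 2 calls, both higher in soluble OVA spleens. In OVA NP against soluble OVA patches, where 4 marginal zone genes were called higher, 5 of 10 macrophage and monocyte genes were also higher, 6 of 8 dendritic and plasmacytoid genes were higher and 1 lower, and 4 of 8 T and NK cell genes were higher and 1 lower. Of the B cell lists in that comparison, 5 of 9 follicular genes were higher and 1 lower, and 9 of 10 germinal center genes were lower. The dendritic sums were 95.1 to 99.3 CPM after OVA NPs and 56.7 to 63.9 CPM after soluble OVA, without overlap, and the macrophage sums were 292 to 384 and 160.0 to 369 CPM, with overlap. The summed T and NK cell level was 136 to 145 CPM after OVA NPs and 157 to 175 CPM after soluble OVA. This sum was lower after OVA NPs although 4 genes (Cd3g, Cd4, Cd3e, and Cd8a) were called higher. Lck, the gene called lower, made up most of the sum, at 112 CPM on average after OVA NPs against 153 CPM after soluble OVA. The T and NK cell sums therefore do not show the rise of the other 4 called genes. Within PBS and within soluble OVA patches, the libraries ranked alike in the macrophage sum, Plac8, and Cd36, but not within OVA NP patches. In soluble OVA replicates 1, 2, and 3 the macrophage sums were 160.0, 369, and 270 CPM, and Plac8 was at 52.8, 126, and 91.3 CPM. Plac8 correlated with Cd36 at 0.89 across the 9 Peyer's patch libraries. Cd36 and Cr2 can be transcribed by some of these cells. The part of such cells in the calls, and in the levels of Plac8 and Cd36, was not tested.

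Across the 9 spleen libraries, 36 of the 45 pairs among the 10 genes correlated positively in log2 CPM, with a median Pearson r of 0.76, highest for Cr2 with Cd36 at 0.96 and lowest for Myof with Plac8 at -0.58. Each gene correlated with the mean z score of the 10, which includes itself, at 0.77 or more, except Plac8 at -0.23. Across the 9 Peyer's patch libraries, 32 of 45 pairs were positive with a median of 0.30, highest for Cr2 with Notch2 at 0.99. There Notch2, Cd1d1, Cr2, and Cd9 tracked the mean at 0.91, 0.92, 0.89, and 0.87, and Dtx1 at -0.28. Among 11978 other genes, the 8 most like the mean of the 10 in spleen included Snx11, Phf21a, Orai2, Jade2, Tmem131l, and Sh2d3c, with r from 0.97 to 0.98. The Peyer's patch group was Npc1, Vcl, Enpp5, Irf1, Dnmt3a, Rflnb, Arrb1, and Dnajb14, with r from 0.97 to 0.98. No gene was in both groups of 8. The points share treatment groups, so these values describe the 9 libraries of each tissue.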

How the data were processed

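Poly(A) RNA of B cells enriched by negative selection was sequenced in 18 libraries. The authors used cutadapt 2.3 for trimming, STAR 2.7.8a for alignment to GRCm38, and RSEM 1.3.3 for count estimates per gene, with versions as in the submitters' processing notes. The deposited table holds expected counts, unnormalized and all whole numbers. The strand setting was not given in the sources used here. Exons of Cd9, S1pr3, and Notch2 overlap predicted genes over 218, 45, and 541 bases, where reads could be assigned differently.

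Comparisons were fitted with edgeR 4.0.16 (R 4.3.3; TMM, filterByExpr, robust quasi-likelihood F test) on their own 6 libraries, or 12 for interactions, with Benjamini-Hochberg adjustment over all genes tested. All 10 genes passed the filter in every comparison. Intervals use the t quantile of the moderated degrees of freedom. Positions and exon lengths come from GENCODE M21 on GRCm38, which is not the annotation release the authors counted with. The 10 genes, the other gene lists, and the tests were chosen with earlier results of these data known. All 10 genes were named, and from each other list only the called gene furthest from 0, with a few further symbols as examples chosen after their values were seen. Alternatives were DESeq2 1.42.0, its size factors in edgeR, other count filters, removal of immunoglobulin genes, no fold threshold, 1 fit of all libraries, a replicate block, each library left out, and, chosen after seeing the data, scaling to B cell identity genes. The scripts were tested on simulated counts. Some genes that the rules would name are not reported here. The labels do not say whether replicates of both tissues came from the same mice.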

Additional observations from a re-analysis of the deposited data

Results flagged for a closer look

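The effect of soluble OVA on Notch2 differed between the tissues by a tested interaction of -0.72 (SE 0.17, adjusted p = 0.0227) on the log2 scale (edgeR). Notch2 was the 1 gene called of the 10, where 6.84% of all genes were called. Notch2 fell from 215 ± 21.8 to 97.2 ± 12.5 CPM (SD, n = 3) in Peyer's patches and from 496 ± 27.5 to 371 ± 60.9 CPM in spleen, lower in 3 of 3 soluble OVA libraries than in every PBS library of the same tissue. The call was lost without spleen soluble OVA replicate 2 or 3, Peyer's patch soluble OVA replicate 2 or 3, or spleen PBS replicate 1 or 2, with adjusted p from 0.0517 to 0.0834 in those 6 fits. The replicate block also ended the call, at -0.71 (adjusted p = 0.0591). That block joins same-numbered libraries across treatments, which come from different mice. It therefore does not adjust for spleen and patches of the same mouse. Groups of 3 libraries were too small to be searched for single outlying libraries.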

How the results depend on the processing

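The 63 member values whose 95% interval left out 0 kept their direction in all 1005 refits. Of the 47 others, 22 changed sign in at least 1 of their refits (44 of 745). The setting with no fold threshold is the main fit itself and is counted among these refits, so it could not change a sign. As the 63 values were picked by an interval from the same libraries, their kept direction is no independent check. Leaving out single libraries gave 2 to 9 member calls for OVA NP and 5 to 7 for soluble OVA spleens against PBS, 4 to 5 for soluble OVA patches against PBS, 4 for OVA NP against soluble OVA patches, and 0 for the 2 comparisons without a call. Between tissues it gave 7 to 8 calls after PBS, 7 to 9 after soluble OVA, and 8 to 9 after OVA NPs, and in the interactions 0 to 2 for OVA NPs and 0 to 3 for soluble OVA. Besides, OVA NP against PBS spleens gave 3 calls in 1 fit of 18 libraries and 1 when scaled to B cell identity genes. The OVA NP interaction gave 3 calls with DESeq2, 5 with no count filter, and 1 with at least 10 counts in every library. The soluble OVA interaction gave 4 calls with DESeq2, 2 with its size factors in edgeR, 2 with no count filter, 4 with at least 10 counts in every library, 3 in 1 fit of 18 libraries, and 2 when scaled to B cell identity genes. The cause of these shifts was not tested.

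Replicate numbers are shared by the groups, but same-numbered libraries did not deviate together in every pair of any comparison (mean correlation of deviations -0.19 to 0.051), so the numbers were not taken as a pairing. With the replicate block, member calls were 7 and 7 in spleen against PBS, 5 and 4 in Peyer's patches for soluble OVA against PBS and OVA NP against soluble OVA, 7, 9, and 8 between tissues after PBS, soluble OVA, and OVA NPs, and 0 in the soluble OVA interaction, where Notch2 (log2 fold change: tissue by soluble OVA) stood at -0.71 (adjusted p = 0.0591).

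Counts over all genes that moved by more than 1.5 times were those of OVA NP against PBS patches (0, against 149 with DESeq2, 146 with no count filter, 24 in 1 fit of 18 libraries, and 16 scaled to B cell identity genes), OVA NP against soluble OVA spleens (33, against 113, 230, and 14 in the first 3 of these), the OVA NP interaction (734, against 1290 with DESeq2, 429 with the replicate block, and 395 scaled to B cell identity genes), the soluble OVA interaction (1131, against 1817 with DESeq2), and OVA NP against soluble OVA patches (4697, against 3119 with the replicate block). Scaling to B cell identity genes turned the split of higher and lower calls from 1221 and 902 to 2145 and 255 for OVA NP against PBS spleens, from 19 and 14 to 23 and 7 for OVA NP against soluble OVA spleens, from 2131 and 2189 to 3465 and 1159 for soluble OVA against PBS patches, and from 293 and 838 to 777 and 591 in the soluble OVA interaction. Between tissues the split went from 3939 and 3111 to 8025 and 984 after PBS, from 4122 and 3750 to 8801 and 1198 after soluble OVA, and from 3398 and 2337 to 7531 and 529 after OVA NPs. Without single libraries, the counts over all genes ran from 291 to 945 for the OVA NP interaction (lowest without spleen OVA NP replicate 1), from 655 to 1279 for the soluble OVA interaction (lowest without spleen PBS replicate 1), from 0 to 40 for OVA NP against soluble OVA spleens (0 without OVA NP replicate 2), and from 0 to 8 for OVA NP against PBS patches (8 without PBS replicate 3). In Peyer's patches Nebl rested on the fewest counts, at 1.73 to 5.56 CPM.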
